A study of Mus musculus with 15 samples.

Results

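The 29 genes described here make or regulate cholesterol and fatty acids, and they are a list taken by name: 7 enzymes of the mevalonate pathway, 11 enzymes that turn its products into squalene and then cholesterol, 5 genes that sense or move sterol, and 6 enzymes of fatty acid synthesis. All 29 were found among the 34554 genes and added sequences of the RNA sequencing tables, and all 29 were among the 16462 features that passed the filter on low counts. Transcripts were measured in total RNA of organoids grown from normal mouse pancreatic duct epithelium. In the 3 lines labelled CA19-9 inducible (A217, A220 and A225), doxycycline switches on the alleles needed to make CA19-9, a sialylated Lewis glycan that mouse cells do not otherwise make. The 2 lines labelled genetic negative (A218 and A223) lack a required allele; neither the missing allele nor the promoter that drives the transgenes is stated in the labels. Cultures of each line received doxycycline (1 µg/ml) for 0, 4 or 24 h, making 15 libraries of 1 line and time each, so that the inducible groups hold 3 libraries and the negative groups hold 2. Both genotypes received doxycycline at 4 and 24 h, and medium was renewed in every culture 24 h before all of them were harvested together, per the labels' protocols. The labels do not say whether the lines come from separate animals, so each p-value reflects only the variation among these lines.

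Cholesterol is built from acetyl-CoA by way of mevalonate, isoprenoid phosphates, squalene and lanosterol, and fatty acids are built from the same acetyl-CoA by acetyl-CoA carboxylase and fatty acid synthase. Both routes are switched on by the SREBP transcription factors, membrane proteins of the endoplasmic reticulum that SCAP escorts to the Golgi for cleavage when sterol is low, and that INSIG proteins hold back when sterol is plentiful. INSIG1 is itself a known SREBP target in mammalian cells, so its transcript level is widely read as part of this feedback.

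Promoter windows, taken from RefSeq annotation on GRCm38.p6, covered 250 bases before to 50 bases after a start site and were available here for 23 of the 29 genes. Those of 4 genes are printed. Insig1, Nsdhl and Sc5d passed the main test below as higher at 24 h against 0 h over all lines. Hmgcs1 passed it only at 24 h against 4 h, as did Cyp51 and Hsd17b7, whose windows are not printed. Acaca, which passed as lower in both comparisons, is not printed either. In each, 5′ to 3′ along the gene, capitals mark letters of the NF-Y box (CCAAT or its reverse ATTGG), of the E-box CACGTG and of the sterol regulatory element TCACNCCAC, searched on both strands. Insig1, which encodes the retention protein, lies at chr5:28071162-28071461 on the + strand. Nsdhl, which encodes a sterol dehydrogenase of C4 demethylation, lies at chrX:72918271-72918570 on the + strand. Sc5d, which encodes lathosterol oxidase, lies at chr9:42264251-42264550 on the - strand. Hmgcs1, which encodes the synthase that makes HMG-CoA, lies at chr13:119690101-119690400 on the + strand.
Insig1: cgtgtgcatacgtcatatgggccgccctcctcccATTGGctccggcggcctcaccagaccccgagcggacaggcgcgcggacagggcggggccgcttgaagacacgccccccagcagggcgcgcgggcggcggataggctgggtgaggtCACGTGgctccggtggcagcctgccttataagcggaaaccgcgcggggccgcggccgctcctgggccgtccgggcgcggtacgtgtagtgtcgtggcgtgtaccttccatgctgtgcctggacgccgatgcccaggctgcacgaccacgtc
Nsdhl: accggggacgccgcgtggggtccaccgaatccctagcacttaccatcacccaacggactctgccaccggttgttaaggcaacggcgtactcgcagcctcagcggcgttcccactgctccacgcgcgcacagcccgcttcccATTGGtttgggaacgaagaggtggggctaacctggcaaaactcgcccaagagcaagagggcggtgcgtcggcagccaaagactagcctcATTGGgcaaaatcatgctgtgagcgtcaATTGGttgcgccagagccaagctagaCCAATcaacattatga
Sc5d: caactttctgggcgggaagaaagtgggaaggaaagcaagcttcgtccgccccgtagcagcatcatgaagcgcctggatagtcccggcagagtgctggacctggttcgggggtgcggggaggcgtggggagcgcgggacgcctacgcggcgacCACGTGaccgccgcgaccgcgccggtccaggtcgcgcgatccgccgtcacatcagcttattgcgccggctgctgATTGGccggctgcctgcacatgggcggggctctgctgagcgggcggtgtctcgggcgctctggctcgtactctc
Hmgcs1: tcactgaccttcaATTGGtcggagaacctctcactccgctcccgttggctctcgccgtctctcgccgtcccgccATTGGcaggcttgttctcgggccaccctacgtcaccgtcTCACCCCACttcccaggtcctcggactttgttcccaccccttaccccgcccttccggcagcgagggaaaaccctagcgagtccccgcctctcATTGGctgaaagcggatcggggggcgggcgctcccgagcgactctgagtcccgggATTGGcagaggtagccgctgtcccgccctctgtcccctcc

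With the start site at position 1 and the base before it at -1, the Insig1 window held an NF-Y box beginning at -216 and an E-box at -101. The Nsdhl window held 4 NF-Y boxes, beginning at -109, -20, 9 and 35. The Sc5d window held an E-box at -98 and an NF-Y box at -24. The Hmgcs1 window held TCACCCCAC at -137 and 4 NF-Y boxes at -237, -176, -45 and 11. Positions count from the RefSeq start site, which need not be that of the transcripts measured. The leading transcripts Sc5d-202 and Hmgcs1-201 start past the end of their windows, at chr9:42264200 and chr13:119690446. The 23 genes had 29 windows, since some have several start sites. CCAAT stood in 20 of the 29 windows (19 of the 23 genes) and in 37.41% of all 32851 windows of this length. The Sp1 box GGGCGG stood in 22 of the 29 windows (19 of the 23 genes), against 35.66% of all windows, and CACGTG in 6 of the 29 (5 of the 23 genes), against 7.15%. Some windows of the same gene overlap, and the CACGTG of Scap was counted in both of its windows. TCACNCCAC was found in 1 of the 29, that of Hmgcs1, and in 1.242% of all windows. Of the called genes not printed, Cyp51 had an NF-Y box at -29. Hsd17b7 had NF-Y boxes at -165, -73 and -12 and an E-box at -143. The window of Acaca held none of these motifs. These are matches of letters in a short window and were not tested as binding sites.

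In these organoids the pathway was transcribed at a high and even level. On the TPM scale, which divides by transcript length and sums to the same total in each library, the mean level of the 29 genes over the 15 libraries ran from 41.7 TPM for Hsd17b7 to 784 TPM for Scd2, with a median of 123 TPM, against a median of 10.7 TPM over all tested features. Of the 29 genes, 12 were among the 1000 features with the highest TPM. Together they made up 4932 to 5587 TPM of a library, or 0.493 to 0.559% of all transcripts. The spread between libraries was narrow: the ratio of the highest to the lowest library was smallest for Acly, at 1.115, and largest for Insig1, at 1.953.

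**Figure D1:**
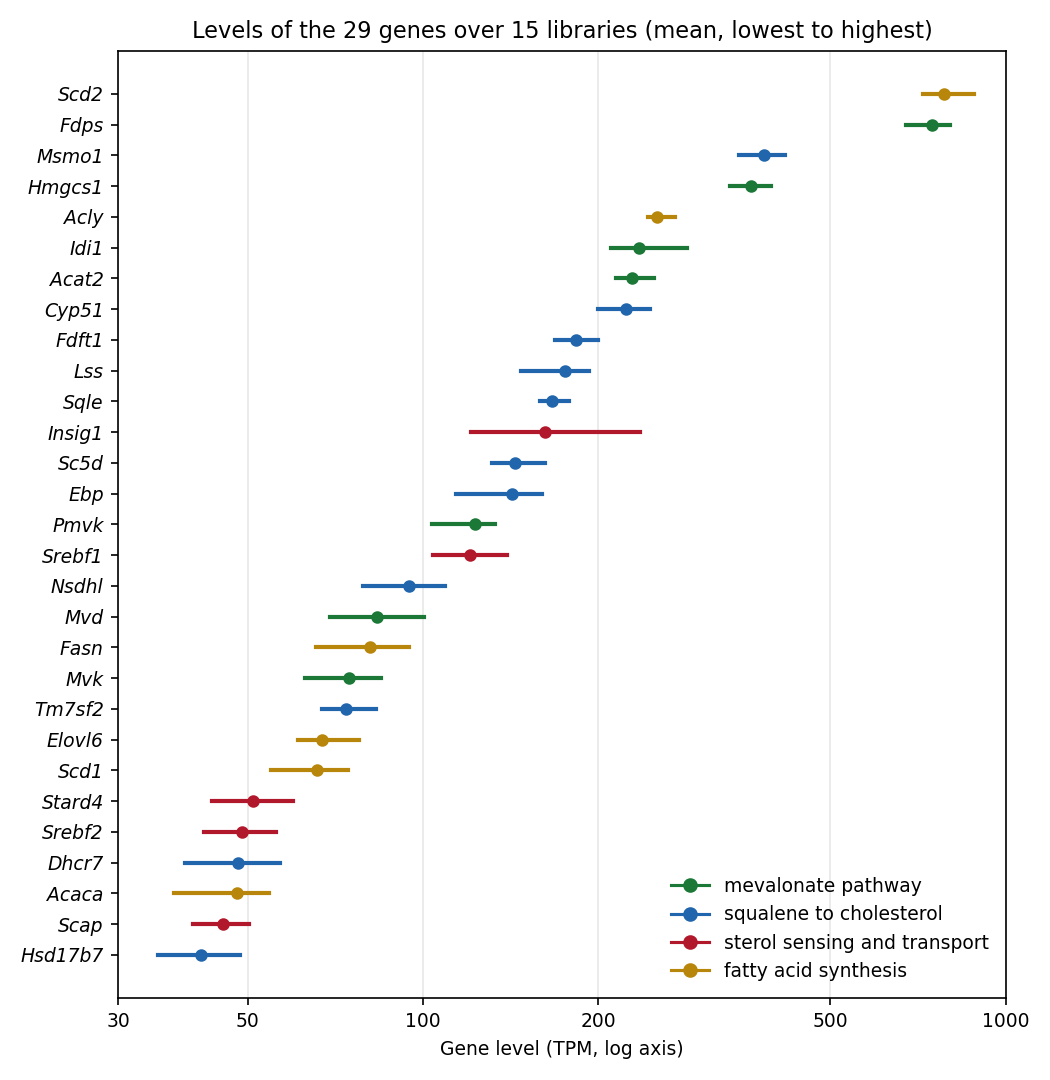
Gene levels in TPM on a log axis, with a point for the mean of the 15 libraries and a line from the lowest to the highest library, coloured by role in the pathway. Scd2 and Fdps lead at 784 and 746 TPM, and Insig1 has the widest range, 121 to 236 TPM.

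Among the enzymes of the mevalonate pathway, Fdps, the farnesyl diphosphate synthase, stood highest at 746 ± 33.4 TPM (SD over 15 libraries). It was followed by Hmgcs1 at 366 ± 18.5 TPM, Idi1, which isomerises isopentenyl diphosphate, at 235 ± 20.1 TPM, and Acat2, a thiolase that makes acetoacetyl-CoA, at 228 ± 11.98 TPM. The ranges of Idi1 and Acat2 overlapped. The mevalonate kinases and decarboxylase came lower, with Pmvk at 123 ± 7.69 TPM, Mvd at 83.3 ± 9.97 TPM and Mvk at 74.5 ± 6.16 TPM. Of the enzymes from squalene to cholesterol, Msmo1, the C4 methyl oxidase, was highest at 385 ± 21.1 TPM and Cyp51, the lanosterol demethylase, came next at 222.9 ± 13.0 TPM. Fdft1 (squalene synthase), Lss (lanosterol synthase) and Sqle (squalene epoxidase) lay close together at 183 ± 9.74, 176 ± 13.3 and 166 ± 5.25 TPM, with overlapping ranges. Sc5d had 144 ± 8.35 TPM and Ebp, the sterol isomerase, 142 ± 13.2 TPM, again with overlapping ranges. Nsdhl had 94.7 ± 9.72 TPM, Tm7sf2 (a sterol C14 reductase) 73.8 ± 5.43 TPM and Dhcr7, which catalyses the last step, 48.1 ± 5.30 TPM. The ketosteroid reductase Hsd17b7 was lowest of all at 41.7 ± 4.18 TPM.

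Of the regulators, Insig1 averaged 162 ± 35.6 TPM and Srebf1, which encodes SREBP-1, 120 ± 8.02 TPM. Srebf2, which encodes SREBP-2, was lower at 48.9 ± 4.83 TPM, and its range did not overlap that of Srebf1. The sterol carrier Stard4 had 51.1 ± 4.98 TPM and the escort Scap 45.4 ± 3.18 TPM. Fatty acid synthesis was led by Scd2, 1 of the stearoyl-CoA desaturases, at 784 ± 44.9 TPM, whose range overlapped that of Fdps. Its relative Scd1 stood at 65.8 ± 6.76 TPM, below Scd2 in every library. Acly, which makes cytosolic acetyl-CoA from citrate, had 252 ± 7.65 TPM. Fasn (fatty acid synthase) had 81.2 ± 6.71 TPM, Elovl6 (an elongase) 67.2 ± 4.46 TPM and Acaca (acetyl-CoA carboxylase) 48.0 ± 5.88 TPM. A lower level in bulk RNA can mean fewer cells with the transcript or less of it per cell, which these libraries cannot tell apart.

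Most genes were read from 1 main transcript. Srebf2, Scd1 and Scd2 had a single transcript in the tables, and Insig1-201 held 95.15% of the Insig1 TPM and Nsdhl-201 99.29% of that of Nsdhl. Srebf1 was split, with Srebf1-201 at 38.35% (35.32 to 41.77% over the libraries), Srebf1-207 at 22.47% and Srebf1-210 at 16.48%. Srebf1-210 is annotated as a processed transcript and not as protein coding. Lss was split too, with the protein coding Lss-201 at 47.02% and the processed transcript Lss-202 at 22.91%. The retained-intron transcripts Lss-205 and Lss-204 held 13.96% and 9.7%, so its gene TPM counts much that is not annotated as coding. For Acly 4 transcripts held at least 14.08% each, led by Acly-203 at 37.08%. Acaca-201 held 51.22% of the Acaca TPM and Fasn-205 66.57% of that of Fasn.

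Several genes share sequence with others, which the estimated counts may split unevenly. Of the 31-base words of the leading transcript, 85.75% of those of Fdps also occurred in other genes, most in Gm43738 (1.104 TPM), as did 59.9% of those of Acaca (most in the pseudogene Gm5182, 0.769 TPM) and 50.54% of those of Acat2 (most in Acat3, 2.10 TPM). For Fdft1 the share was 47.53%, most of it from the antisense neighbour Ctsb (136 TPM), which it overlaps by 774 bases. For Idi1 it was 22.19%, most of it from the pseudogene Gm13502, itself at 96.4 TPM. The sources used here do not state if strand was used in counting. Values of these 5 genes are therefore uncertain to that extent, while Nsdhl, Hmgcs1, Lss, Sqle, Msmo1, Srebf2, Scap and Fasn shared no such word, nor did Mvk, Mvd (which lies within Gm20388 on the other strand), Pmvk, Ebp, Tm7sf2, Dhcr7, Acly or Stard4.

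The transgene read as labelled. EGFP, 1 of the added sequences, in inducible lines reached 259 to 340 CPM (counts scaled to a common library size by TMM) at 4 h and 270 to 385 CPM at 24 h, against 0.341 to 0.738 CPM at 0 h, and lay between 0.0964 and 0.345 CPM in negative libraries at any time. rtTA3, the doxycycline-dependent activator, was present in all 15 libraries. Markers of other cells were low: adipocyte markers summed to 0.116 to 0.590 TPM with Adipoq at 0 in every library, acinar markers to at most 2.83 TPM with Ptf1a and Cpa1 at 0, endocrine markers to at most 0.267 TPM with Ins1, Ins2 and Gcg at 0, fibroblast markers to at most 0.953 TPM, endothelial markers to at most 5.04 TPM and immune markers to at most 2.84 TPM with Adgre1 at 0. Hepatocyte markers summed to 42.1 to 104 TPM, nearly all of it Ttr. All 11 duct markers were detected, and their sum moved with time. It was 13750 to 15820 TPM at 24 h, against 10520 to 13080 TPM at 0 h, in inducible lines, and 15720 to 16360 TPM at 24 h, against 11680 to 11740 TPM at 0 h, in negative lines. Krt8 and Krt18 were the 2 of the 11 called higher at 24 h against 0 h in each genotype, and the part of this shift in the results below was not tested.

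The first question was which of the genes moved with doxycycline. Insig1 rose at 24 h in both genotypes, 1.63-fold in inducible and 1.64-fold in negative lines by the ratio of mean CPM, and Nsdhl rose in inducible lines. Acaca fell in negative lines. No other change within a genotype passed the test, and those log2 changes lay between -0.19 and 0.31. With edgeR's quasi-likelihood test, adjusted over all 16462 features and called below 0.05, 2 of the 29 genes changed at 24 h against 0 h in inducible lines, where 4.93% of all features were called. In negative lines 2 of 29 changed, where 3.8% of all features were called. The median log2 change of the 29 genes was 0.03 in inducible lines and 0.08 in negative lines, against 0.00 and 0.01 over all features. With the line as a block, 9 of 29 were called in inducible lines, where 24.2% of all features were, and 8 of 29 in negative lines, where 22.5% were. Without the block, the count in inducible lines was 5 without A217 at 24 h and 1 without A217 at 0 h, A220 at 24 h, A225 at 0 h or A225 at 24 h, and that in negative lines was 0 without any 1 of their 4 libraries at 0 and 24 h.

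Insig1 lies at chr5:28071363-28078662 on the + strand (GRCm38, GENCODE M21). In inducible lines it had 216.9, 233 and 287 CPM at 0, 4 and 24 h in A217, 222.8, 272 and 350 CPM in A220, and 202, 264 and 409 CPM in A225. The negative line A218 had 208, 250 and 358 CPM at 0, 4 and 24 h, and A223 had 239, 240 and 373 CPM. The 24 h library of each line was its highest, the 24 h and 0 h groups did not overlap in either genotype, and A217 had the smallest rise. The log2 change at 24 h was 0.71 ± 0.11 (SE, n = 3 lines; edgeR adjusted p = 0.00346) in inducible lines and 0.71 ± 0.13 (SE, n = 2 lines; edgeR adjusted p = 0.0119) in negative lines. The difference of the 2 responses was -0.0036 ± 0.17 (SE; edgeR adjusted p = 1). Taking the lines of both genotypes together with equal weight for each genotype, Insig1 changed by 0.71 ± 0.08 on the log2 scale at 24 h against 0 h (edgeR adjusted p = 0.000242) and by 0.51 ± 0.08 at 24 h against 4 h (edgeR adjusted p = 0.00174), higher in 5 of 5 lines each time. The rise in inducible lines stayed called without any 1 library, with log2 changes of 0.57 to 0.83. In negative lines, leaving out any of the 4 libraries at 0 and 24 h ended the call, with edgeR adjusted p of 0.0701 to 0.139. A fit to the inducible 0 and 24 h libraries alone also ended the call, at an edgeR adjusted p of 0.0667.

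**Figure D2:**
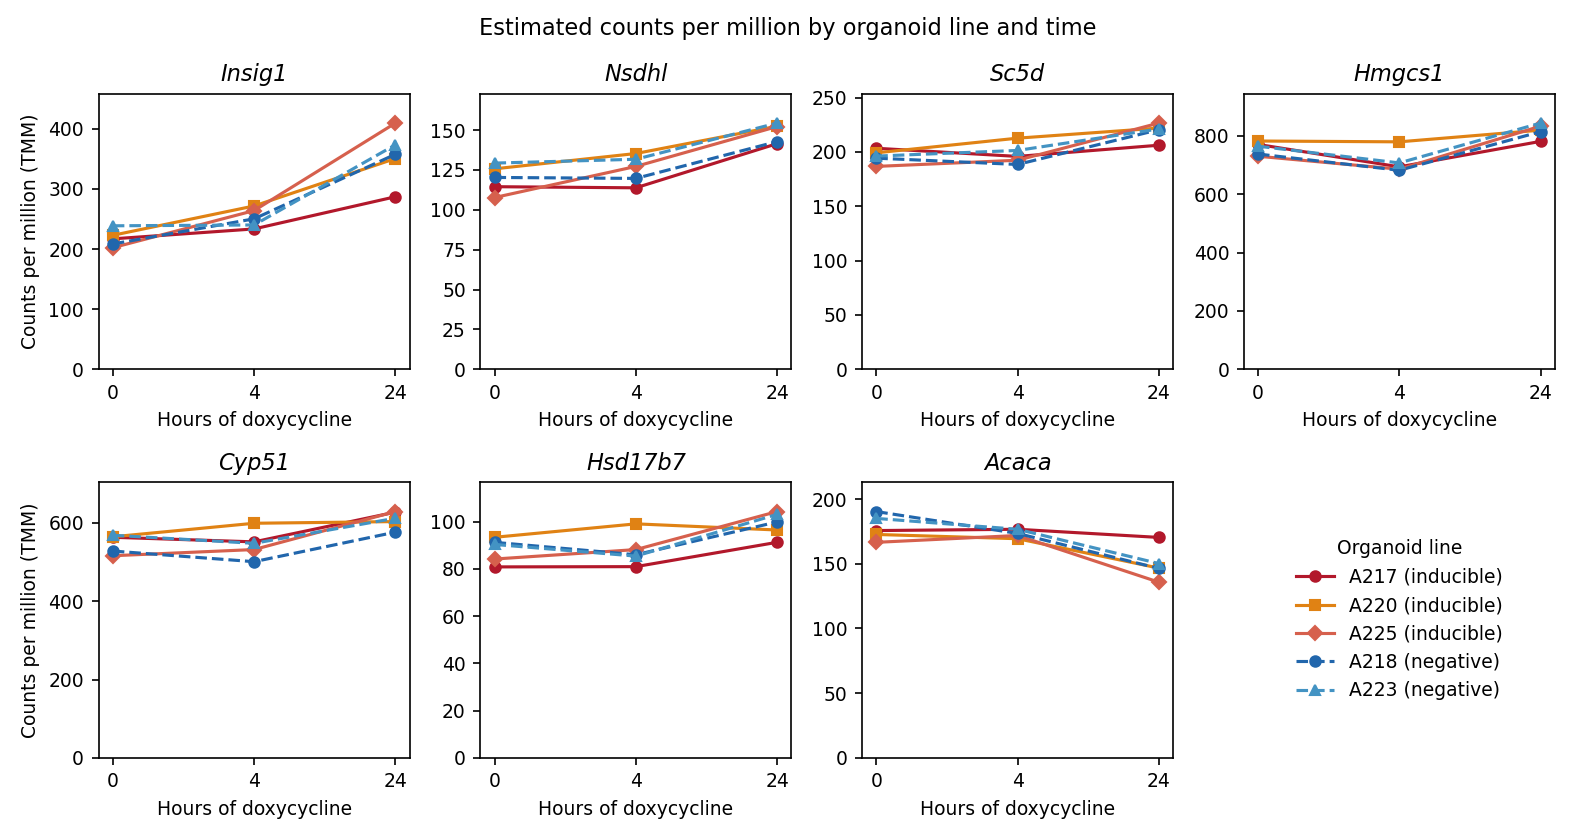
CPM (vertical axes from 0) at 0, 4 and 24 h of doxycycline for the 7 genes called in any comparison by edgeR over all 15 libraries without the line as a block. Each organoid line has 1 line, solid for inducible and dashed for negative. Insig1 climbs in all 5 lines, to 287 to 409 CPM at 24 h in inducible lines and 358 to 373 CPM in negative lines, while the other genes shift by less.

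Nsdhl, at chrX:72918557-72958514 on the + strand, showed the next largest rise in inducible lines. In inducible lines it had 115, 114 and 142 CPM at 0, 4 and 24 h in A217, 126, 135 and 152 CPM in A220, and 108, 127 and 152 CPM in A225. In negative lines it had 120, 120 and 143 CPM at 0, 4 and 24 h in A218, and 129, 132 and 154 CPM in A223. The 24 h libraries lay above the 0 h libraries in both genotypes, with no overlap. The log2 change at 24 h was 0.36 ± 0.07 in inducible lines (SE; edgeR adjusted p = 0.0174) and 0.25 ± 0.09 in negative lines (SE; edgeR adjusted p = 0.138), and the difference of the responses was 0.11 ± 0.12 (SE; edgeR adjusted p = 1). Over all lines Nsdhl changed by 0.31 ± 0.06 at 24 h against 0 h (SE; edgeR adjusted p = 0.00421) and by 0.24 ± 0.06 at 24 h against 4 h (SE; edgeR adjusted p = 0.0127), higher in 5 of 5 lines each time. The negative lines were called too once the line entered the fit as a replicate block, at an edgeR adjusted p of 0.00634. The call in inducible lines was lost without A217 at 0 h, A220 at 24 h, A225 at 0 h or A225 at 24 h, with edgeR adjusted p of at most 0.0776, and in the fit to the compared groups alone, at 0.102.

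Acaca, at chr11:84129672-84401651 on the + strand, went the other way. In inducible lines it had 176, 177 and 170 CPM at 0, 4 and 24 h in A217, 173, 169 and 147 CPM in A220, and 167, 172 and 136 CPM in A225. In negative lines it had 190, 173 and 146 CPM at 0, 4 and 24 h in A218, and 185, 177 and 150 CPM in A223. The 24 h and 0 h groups overlapped in inducible lines, where A217 hardly differed, and did not overlap in negative lines. The log2 change at 24 h was -0.19 ± 0.07 in inducible lines (SE; edgeR adjusted p = 0.117) and -0.34 ± 0.08 in negative lines (SE; edgeR adjusted p = 0.0359), with a difference of 0.15 ± 0.10 (SE; edgeR adjusted p = 1). Over all lines Acaca changed by -0.26 ± 0.05 at 24 h against 0 h (SE; edgeR adjusted p = 0.0051) and by -0.22 ± 0.05 at 24 h against 4 h (SE; edgeR adjusted p = 0.0127), lower in 5 of 5 lines each time. The replicate block called the inducible lines as well, at an edgeR adjusted p of 0.0117. Without any 1 of the 4 negative libraries at 0 and 24 h the call in negative lines was lost, with edgeR adjusted p of 0.151 to 0.187.

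No response was shown to differ between the genotypes. For the difference of the 24 h responses 0 of the 29 genes were called by edgeR, where 0.0121% of all features were, and 1 gene, Pmvk, had an unadjusted p below 0.05. With the line as a block 3 genes had an unadjusted edgeR p below 0.05, against 2 with limma-voom and 1 with DESeq2. The share of all features at that level was not counted. Pmvk, phosphomevalonate kinase, changed by -0.12 ± 0.06 on the log2 scale in inducible lines and by 0.11 ± 0.07 in negative lines, and neither passed the test (edgeR adjusted p = 0.25 and 0.4). The difference of the 4 h responses gave 0 calls by edgeR, where 0.0121% of all features were called, and 0 genes with an unadjusted p below 0.05. At 0 h, inducible against negative lines also gave 0 calls by edgeR, where 0% of all features were called, and 0 genes with an unadjusted p below 0.05. The replicate block gave 0 calls too, where 0.0243% of all features were called for the 24 h difference and 0.0182% for the 4 h difference, and limma-voom with a random line effect (0.0121% for each difference, 0% at 0 h) and DESeq2 (0.02% in each) likewise called 0 of the 29. At 0 h Insig1 averaged 214 ± 10.6 CPM in inducible lines and 223.5 ± 21.4 CPM in negative lines (SD, n = 3 and 2 lines).

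**Figure D3:**
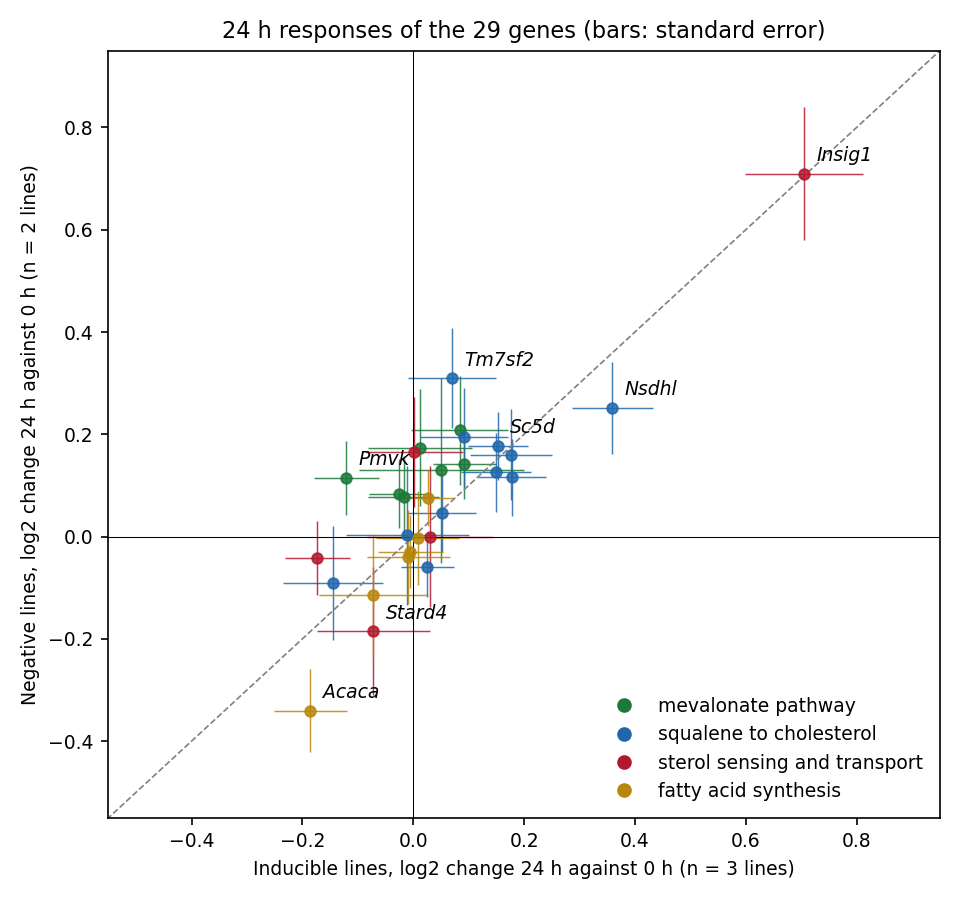
The log2 change at 24 h against 0 h of each of the 29 genes in inducible lines (horizontal, n = 3 lines) and negative lines (vertical, n = 2 lines), with bars of 1 standard error from the edgeR fit and a dashed line of equal change. Insig1 sits at 0.71 on both axes, Nsdhl at 0.36 and 0.25 and Acaca at -0.19 and -0.34.

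The time comparisons over all 5 lines use every library of a time. At 24 h against 0 h, 4 of 29 genes were called, 3 higher (Insig1, Nsdhl and Sc5d) and 1 lower (Acaca), where 18.7% of all features were called (10.9% higher and 7.83% lower). At 24 h against 4 h, 7 of 29 were called, 6 higher (Insig1, Nsdhl, Hmgcs1, Hsd17b7, Cyp51 and Sc5d) and 1 lower (Acaca), where 19.5% of all features were called (11.3% higher and 8.24% lower). These 2 comparisons share their 24 h libraries. The count of 7 fell to 3 without A223 at 24 h and to 4 without A217 at 4 h, A218 at 24 h, A220 at 24 h, A225 at 4 h or A225 at 24 h. A share of 4 or 7 in 29 is close to that of all features, so the counts do not set the pathway apart. When the line was kept as a replicate block, 12 of 29 were called at 24 h against 0 h, where 36.1% of all features were, and 14 of 29 at 24 h against 4 h, where 37% of all features were. limma-voom called 11 and 12 of 29 in these comparisons (33.9% and 34.7% of all features) and 8 and 5 in inducible and negative lines at 24 h (20.6% and 19%). DESeq2 called 6 and 9 of 29 (25.2% and 25.9% of all features) and 4 and 3 in inducible and negative lines at 24 h (14.3% and 11.7%).

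By role, of the 11 enzymes from squalene to cholesterol 2 were called higher and 0 lower at 24 h against 0 h, where 10.9% of all features were called higher, and 4 higher and 0 lower at 24 h against 4 h, where 11.3% were, with median log2 changes of 0.14 and 0.12. Of the 7 mevalonate enzymes, 0 were called at 24 h against 0 h by edgeR and 1, Hmgcs1, at 24 h against 4 h, with median log2 changes of 0.09 and -0.02. Of the 5 genes that sense or move sterol 1, Insig1, was called each time, and of the 6 fatty acid enzymes 1, Acaca, was called lower each time. With the replicate block, Cyp51, Hsd17b7, Lss, Msmo1, Nsdhl, Sc5d and Tm7sf2 of the 11 enzymes rose at 24 h against 0 h and Ebp fell, where 36.1% of all features were called. The medians over all tested features were 0.00 and -0.01, and whether the groups of enzymes differ from each other was not tested.

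Sc5d had 203, 196 and 206 CPM at 0, 4 and 24 h in A217, 199, 213 and 222 CPM in A220, and 187, 192 and 227 CPM in A225. Of the negative lines, A218 had 194, 189 and 221 CPM and A223 had 196, 201 and 221 CPM. Its 24 h and 0 h groups did not overlap in either genotype, and A217 moved least. Its log2 change over all lines was 0.17 ± 0.04 at 24 h against 0 h (SE; edgeR adjusted p = 0.0191) and 0.15 ± 0.04 at 24 h against 4 h (SE; edgeR adjusted p = 0.0261). Each of 7 libraries ended the first call when left out (both 0 h and both 24 h libraries of A218 and A223, A220 at 24 h, and A225 at 0 and 24 h), with edgeR adjusted p of at most 0.0855.

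Hmgcs1 dipped at 4 h. It had 770, 693 and 781 CPM at 0, 4 and 24 h in A217, 782, 779 and 819 CPM in A220, and 730, 685 and 833 CPM in A225. Of the negative lines, A218 had 737, 682 and 814 CPM and A223 had 764, 707 and 843 CPM. The 4 h library was the lowest of each of the 5 lines and the 24 h library the highest, although A220 differed little between 0 and 4 h. The log2 change at 24 h against 4 h was 0.21 ± 0.05 (SE; edgeR adjusted p = 0.00675), and that at 4 h against 0 h was -0.10 ± 0.04 (SE; edgeR adjusted p = 0.429). At 24 h against 0 h it was 0.12 ± 0.04 (SE; edgeR adjusted p = 0.0874), which the replicate block called at 0.0106.

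Cyp51 had 563, 551 and 627 CPM at 0, 4 and 24 h in A217, 564, 599 and 603 CPM in A220, and 516, 532 and 629 CPM in A225. A218 had 528, 501 and 576 CPM and A223 had 568, 548 and 612 CPM. The 24 h library was the highest of every line, by little in A220. Its log2 change at 24 h against 4 h was 0.16 ± 0.05 (SE; edgeR adjusted p = 0.0335), and at 24 h against 0 h it was 0.15 ± 0.05 (SE; edgeR adjusted p = 0.0512; 0.00337 with the replicate block). Hsd17b7 had 80.9, 81.0 and 91.3 CPM at 0, 4 and 24 h in A217, 93.4, 99.1 and 96.5 CPM in A220, and 84.2, 88.2 and 104 CPM in A225. A218 had 91.3, 86.0 and 99.9 CPM and A223 had 90.4, 85.4 and 103 CPM. The 24 h library was above the 0 h library in every line, and in A220 the 4 h library was the highest. Its log2 change at 24 h against 4 h was 0.18 ± 0.06 (SE; edgeR adjusted p = 0.0425). In TPM the gene averaged 42.1 ± 3.25 in inducible lines at 24 h, against 41.5 ± 6.26 at 0 h (SD, n = 3), while there the share of Hsd17b7-201 in its TPM was 69.9% at 24 h and 63.0% at 0 h. Of the 10 libraries at 4 and 24 h, leaving out 7 ended the call of Cyp51 at 24 h against 4 h, 7 that of Sc5d and 8 that of Hsd17b7; without A217 at 24 h or A220 at 4 h all 3 stayed called. Nsdhl at 24 h against 4 h was lost without A218 at 4 h or A223 at 24 h, with edgeR adjusted p of at most 0.07.

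**Figure D4:**
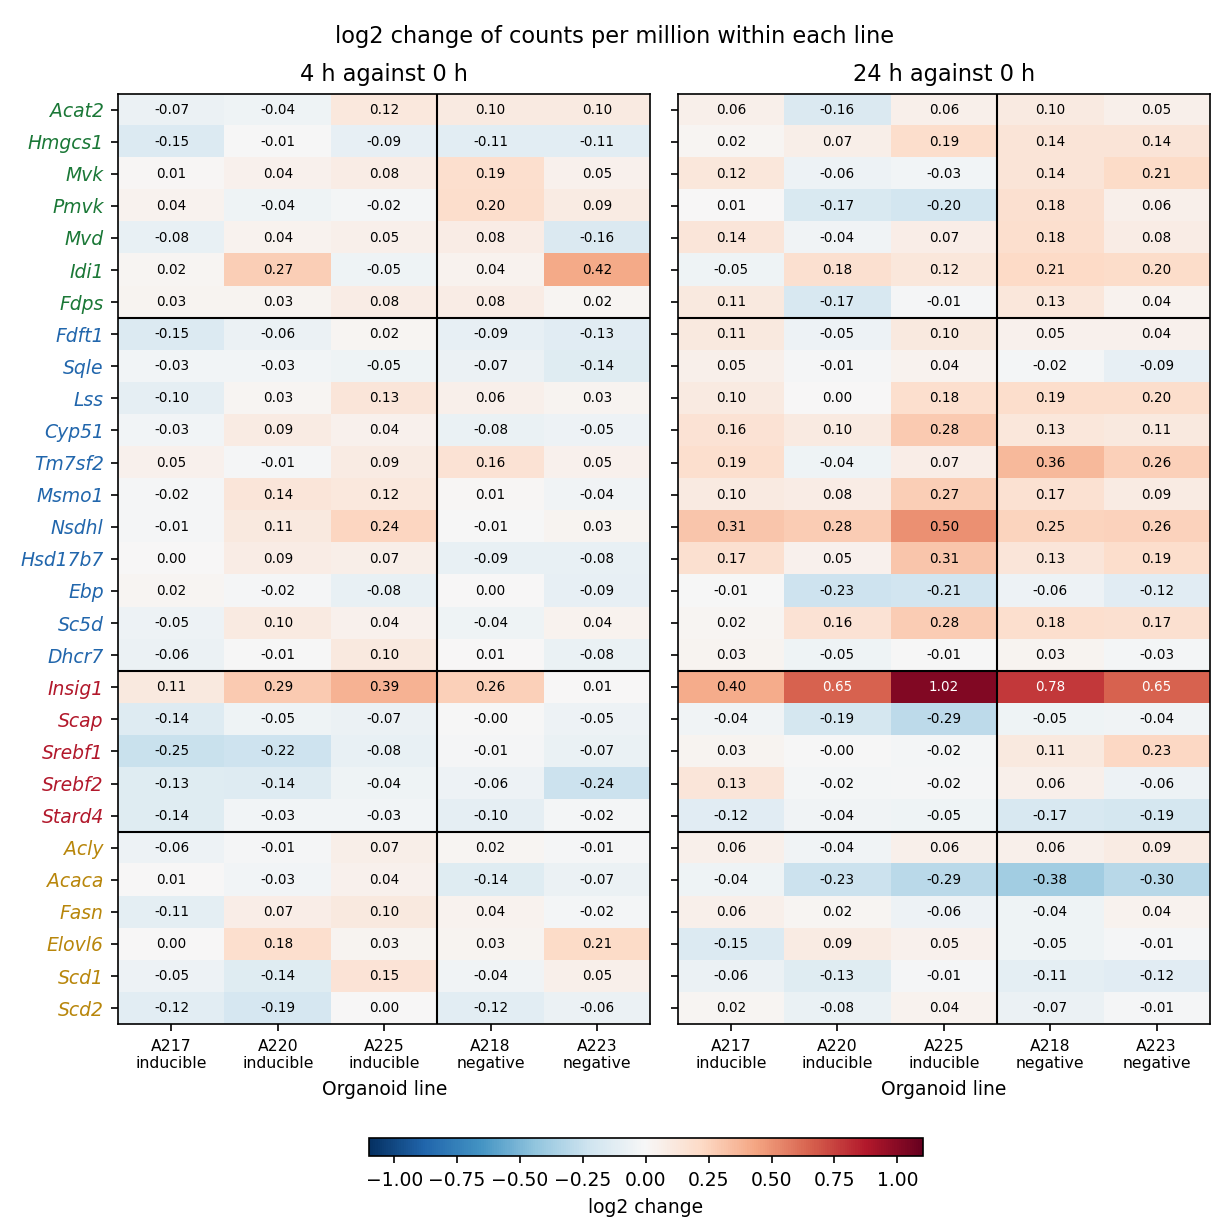
The log2 change of CPM within each organoid line, 4 h against 0 h on the left and 24 h against 0 h on the right, with genes in pathway order (names coloured by role, black lines between roles), inducible lines left of negative lines, red for higher and blue for lower. At 24 h Insig1 runs from 0.40 in A217 to 1.02 in A225, and most other genes change by less than 0.3 in either direction.

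Further genes passed the edgeR test over all 15 libraries when the line was a block and did not pass it otherwise. DESeq2, without a block, also called Tm7sf2 (over all lines and in negative lines at 24 h against 0 h), Fdft1 and Srebf1 (24 h against 4 h) and Scap (inducible lines at 24 h against 0 h). Lss had 353, 329 and 379 CPM at 0, 4 and 24 h in A217, 388, 395 and 388 CPM in A220, 327, 358 and 371 CPM in A225, 336, 349 and 383 CPM in A218 and 371, 378 and 425 CPM in A223. It was higher at 24 h than at 0 h in 4 of 5 lines and level in A220, with a log2 change of 0.14 ± 0.04 over all lines (SE; edgeR adjusted p with block = 0.00652, without it 0.131). Msmo1 had 452, 447 and 485 CPM at 0, 4 and 24 h in A217, 455, 499 and 480 CPM in A220, 416, 451 and 502 CPM in A225, 424, 429 and 476 CPM in A218 and 475, 463 and 505 CPM in A223. Its log2 change over all lines was 0.14 ± 0.04 (SE; edgeR adjusted p with block = 0.0069, without it 0.0738), and it too was higher at 24 h in 5 of 5 lines. Tm7sf2 had 54.3, 56.1 and 62.0 CPM at 0, 4 and 24 h in A217, 64.4, 64.0 and 62.6 CPM in A220, 54.7, 58.2 and 57.6 CPM in A225, 53.3, 59.7 and 68.2 CPM in A218 and 51.1, 52.7 and 61.1 CPM in A223. Without the block, its log2 change at 24 h was 0.31 in negative lines (edgeR adjusted p = 0.0965) and 0.07 ± 0.08 in inducible lines (SE; edgeR adjusted p = 0.66). With the block, Tm7sf2 was called in negative lines, at 0.31 ± 0.06 (SE; edgeR adjusted p = 0.00253), and not in inducible lines. The difference of its responses was -0.24 ± 0.13 (SE; edgeR adjusted p = 1).

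The SREBP genes themselves were not called by edgeR over all 15 libraries without the block. Their log2 changes at 24 h against 4 h were of about the size of those of Cyp51, Sc5d and Hsd17b7. Srebf2 had 153, 139 and 167 CPM at 0, 4 and 24 h in A217, 188, 170 and 185 CPM in A220, 143, 139 and 142 CPM in A225, 169, 162 and 176 CPM in A218 and 183, 155 and 176 CPM in A223. Its 4 h library was the lowest of each line. With the block it changed by -0.13 ± 0.04 on the log2 scale at 4 h against 0 h (SE; edgeR adjusted p = 0.0494) and by 0.14 ± 0.04 at 24 h against 4 h (SE; edgeR adjusted p = 0.00779), against adjusted p of 0.667 and 0.288 without the block. Srebf1 was also lowest at 4 h in every line, with 214, 180 and 219 CPM at 0, 4 and 24 h in A217, 242, 208 and 242 CPM in A220, 208, 197 and 205 CPM in A225, 225.3, 223.1 and 243 CPM in A218 and 198, 188 and 232 CPM in A223. Its change at 24 h against 4 h was 0.20 ± 0.04 with the block (SE, edgeR adjusted p = 0.000793, without it 0.0668), and limma-voom and DESeq2 called it too. Stard4 had 129, 117 and 118 CPM at 0, 4 and 24 h in A217, 127, 125 and 124 CPM in A220, 109, 107 and 105 CPM in A225, 117, 109 and 104 CPM in A218 and 137, 134 and 119 CPM in A223. It was lower at 24 h than at 0 h in 5 of 5 lines, with a log2 change of -0.13 ± 0.03 with the block (SE; edgeR adjusted p = 0.00357, without it 0.296). With the block Scap was called lower in inducible lines, at a log2 change of -0.17 ± 0.05 (SE; edgeR adjusted p = 0.0241, without it 0.102), with CPM of 94.9 to 111 at 24 h and 114 to 120 at 0 h there.

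Fdft1 was called with the block at 24 h against 4 h, at 0.14 ± 0.04 on the log2 scale (SE; edgeR adjusted p = 0.00764), with 351, 330 and 323 CPM at 24 h, against 293, 328 and 304 CPM at 4 h, in A217, A220 and A225. In A218 and A223 it had 318 and 341 CPM at 24 h, against 289 and 302 CPM at 4 h. Ebp was called lower with the block at 24 h against 0 h over all lines, at -0.12 ± 0.04 (SE; edgeR adjusted p = 0.0164), with CPM of 120 to 151 at 24 h and 139 to 162 at 0 h in inducible lines. Elovl6 was called lower with the block at 24 h against 4 h, at -0.11 ± 0.04 (SE; edgeR adjusted p = 0.0383). The remaining 12 genes (Acat2, Acly, Dhcr7, Fasn, Fdps, Idi1, Mvd, Mvk, Pmvk, Scd1, Scd2 and Sqle) were called in no comparison by edgeR over all 15 libraries, with or without the block. A fit to the negative 0 and 24 h libraries alone called Idi1 higher at 24 h, as it did Tm7sf2. Among them Scd2 kept to 2617 to 3252 CPM, Acly to 620 to 677 CPM and Fasn to 368 to 450 CPM across the 15 libraries.

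At 4 h against 0 h, 0 of 29 genes were called in inducible lines by edgeR, where 0.298% of all features were called, and 1, Insig1, had an unadjusted p below 0.05. In negative lines 0 of 29 were called by edgeR, where 0.121% were, and 1, Idi1, had an unadjusted p below 0.05. Over all lines 0 of 29 were called by edgeR, where 0.911% were, with Insig1 and Idi1 at an unadjusted p below 0.05. limma-voom (1.66%, 0.99% and 6.28% of all features) and DESeq2 (1.27%, 0.66% and 4.12%) called 0 of 29 in each of these 3 comparisons as well. The block called 1 of 29 over all lines, Srebf2, where 8.67% of all features were called. In that fit 5 genes in inducible lines, 5 in negative lines and 10 over all lines had an unadjusted edgeR p below 0.05. The share of all features at that level was not counted. The Idi1 difference lay mostly in A220 and A223, with 496 CPM at 4 h, against 412 CPM at 0 h, in A220, and 517 CPM at 4 h, against 387 CPM at 0 h, in A223, while A217, A225 and A218 had 457, 405 and 403 CPM at 4 h, against 449, 419 and 392 CPM at 0 h.

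Summed per role, the levels changed little. The 18 sterol enzymes summed to 3502 to 3513 TPM at 24 h, against 3324 to 3634 TPM at 0 h, in inducible lines, and to 3543 to 3648 TPM at 24 h, against 3415 to 3619 TPM at 0 h, in negative lines. These ranges overlapped. The 6 fatty acid enzymes summed to 1216 to 1331 TPM at 24 h, against 1232 to 1400 TPM at 0 h, in inducible lines, and to 1268 to 1282 TPM at 24 h, against 1348 to 1375 TPM at 0 h, in negative lines. Without Scd2, which makes up most of that sum, the other 5 summed to 477 to 501 TPM at 24 h, against 504 to 519 TPM at 0 h, in inducible lines, and to 492 to 501 TPM at 24 h, against 525 to 527 TPM at 0 h, in negative lines, with no overlap in either. On the CPM scale used for the tests the 5 did not all fall. Acly averaged 663 CPM at 24 h, against 651 CPM at 0 h, in inducible lines, and 672 against 638 CPM in negative lines. Fasn was level, and Acaca, Scd1 and, by little, Elovl6 were lower in both genotypes. No test was made on these sums, and how often other sums separate in this way was not counted.

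Line by line, 22 of 29 genes were higher at 24 h than at 0 h in A217, 10 in A220, 17 in A225, 20 in A218 and 19 in A223, while the share over all features was 50.7 to 52.0%. A220 was the only line with more genes lower than higher. Of the 29 genes, 7 were higher in all 5 lines at 24 h against 0 h and 5 in none, compared with 21.8% and 18.3% of all features. At 24 h against 4 h, 10 were higher in all 5 lines and 3 in none, compared with 21.9% and 17.3% of all features. The median size of the log2 change at 24 h against 0 h was 0.064 to 0.127 for the 29 genes, depending on the line, and 0.083 to 0.129 over the 4188 features with at least the lowest CPM of the 29.

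Other genes of sterol and lipid handling were counted in the same way. Of 16 further genes of cholesterol synthesis and uptake, 3 were called higher and 1 lower at 24 h against 0 h over all lines. Among those called higher were Cyb5r3, which supplies electrons to the desaturating and demethylating enzymes, at a log2 change of 0.44 ± 0.07 (SE; edgeR adjusted p = 0.00184) and Erg28 at 0.18 ± 0.04 (SE; edgeR adjusted p = 0.00872). Lpl, lipoprotein lipase, was the 1 called lower, at -0.61 ± 0.18 (SE; edgeR adjusted p = 0.0321). Its level was very low, with group means of 0.88 to 1.78 CPM.

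Of 11 genes that sense sterol or process SREBP, 1, Erlin2, was called at 24 h against 0 h, higher by 0.16 ± 0.05 (SE; edgeR adjusted p = 0.0428). Insig2, the relative of Insig1, changed by 0.12 ± 0.06 (SE; edgeR adjusted p = 0.149). Of 24 tested genes of other fatty acid synthesis, elongation and desaturation, 3 were called higher and 0 lower: the desaturase family gene Fads3 by 0.43 ± 0.07, Hacd3, an elongation cycle dehydratase, by 0.35 ± 0.04 and Me1, malic enzyme, by 0.13 ± 0.04 (SE; edgeR adjusted p = 0.0022, 0.000113 and 0.0285). Of 21 genes of triglyceride and phospholipid synthesis, 7 were called higher and 0 lower, among them the phosphatidate phosphatases Lpin1 (0.42 ± 0.10) and Lpin2 (0.31 ± 0.04), the lipid droplet coat gene Plin2 (0.37 ± 0.12) and the lipase Pnpla2 (0.34 ± 0.10). Of 11 tested LXR targets and sterol exporters 1, Abcg1, was called higher, by 0.70 ± 0.18 (SE; edgeR adjusted p = 0.0193). Of 14 lipid regulators 0 were called higher and 3 lower: the NF-Y subunits Nfya (-0.27 ± 0.04) and Nfyb (-0.27 ± 0.06) and the coactivator Ppargc1b (-0.75 ± 0.19). Ppargc1b was low, with group means of 2.30 to 4.66 CPM. These counts stand against 10.9% of all features called higher and 7.83% called lower in that comparison, and the rise of the summed duct markers at 24 h accompanied them.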

How the data were processed

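RNA of 15 organoid libraries was sequenced after ribosomal RNA depletion, per the labels' protocols. The authors deposited estimated counts per transcript, not normalised, and TPM, per the file headers; kallisto 0.43.1, GRCm38 and DESeq2 1.18.1 are named in the submitters' processing notes. Estimated counts were summed per gene by GENCODE M21, which may not be the authors' release, and rounded; 1295 of 109282 mouse transcripts had no match. Library totals were 47915632 to 59411540, so that the lowest count of any of the 29 genes was 2735 in a library. TPM was summed per gene as deposited.

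Tests used edgeR 4.0.16 (R 4.3.3), quasi-likelihood with TMM scaling (factors 0.966 to 1.023), the default filter and 6 group means over all 15 libraries, with Benjamini-Hochberg adjustment over 16462 features per comparison and calls below 0.05, in 10 comparisons. The scripts were tested on simulated data. Lines were sampled at every time, so they pair libraries: libraries of 1 line deviated together, with r of 0.381 to 0.476 in inducible lines and 0.238 to 0.285 in negative lines. Alternatives were the line as a replicate block, limma-voom 3.58.1 with a random block (correlation 0.417), DESeq2 1.42.0, median-of-ratios size factors, no filter, a filter of 1 CPM in 3 libraries, the compared groups only, and leaving out each library.

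The 29 genes and all lists were chosen with earlier results of these data known. Genes were named if called without the block, then with it, up to 14 with values in every library; of other lists, up to 4 called genes per list and comparison with the largest changes, with Insig2 added after its values were seen; some genes of these lists are counted and not reported here by name. Promoters are RefSeq windows on GRCm38.p6; protein sequences were not used here.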

Additional observations from a re-analysis of the deposited data

How the results depend on the processing

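The log2 changes followed here were the 44 called in the main fit or with the line as a block, and none changed direction under any alternative. Having been chosen by their calls, they were unlikely to change direction, and the other log2 changes were not followed. Of 144 counts of called genes, 116 stayed within 1.5 times the main count or at 0 and 28 did not. Most of the 116 were at 0 in the main test and stayed at 0, and nearly all of the 28 were in comparisons with calls. The share that stayed therefore says little about the 24 h comparisons that had calls. Of the log2 changes, 546 kept their direction and side of the threshold, 67 passed only under the alternative and 51 only in the main test. With the line as a replicate block the count of called genes was 9 at 24 h against 0 h in inducible lines (2 without it), 8 in negative lines (2 without it), 12 over all lines (4 without it), 14 at 24 h against 4 h (7 without it) and 1 at 4 h against 0 h over all lines (0 without it). The pairing of lines changed no call in the differences between genotypes, with 0 called either way. limma-voom with a random block gave 8, 5, 11 and 12 for the same first 4 comparisons, and DESeq2 gave 4 in inducible lines. Fitting the compared groups only gave 0 in inducible lines, 5 in negative lines and 4 at 24 h against 4 h. Leaving out 1 library gave 1 to 5 called genes in inducible lines, with 5 without A217 at 24 h and 1 without A217 or A225 at 0 h or A220 or A225 at 24 h, 0 in negative lines whichever library was left out, 3 to 6 over all lines at 24 h against 0 h, and 3 to 7 at 24 h against 4 h, with 3 without A223 at 24 h and 4 without A217 at 4 h, A218 at 24 h, A220 at 24 h, A225 at 4 h or A225 at 24 h. A lone remaining library was assumed to vary like the other groups. Causes were not tested. The lowest count of any of the 29 genes in a library was 2735.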
